A study of Mus musculus with 2 samples.

Results

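The genes followed here are 9 transcription factors and receptors of naïve and central memory T cells, namely *Klf2*, *S1pr1*, *Ccr7*, *Il7r*, *Tcf7*, *Lef1*, *Foxo1*, *Bach2* and *Satb1*. They were chosen by gene symbol, and each of the 9 had its own row among the 23282 gene rows of the deposited counts of Th17 cells with and without Cre. Naïve CD4 T cells came from spleens of young female *Fak* fl/fl mice, in which loxP sites flank part of the gene for focal adhesion kinase, and both groups therefore carried the floxed alleles. Control cells received the empty retrovirus MIEG3, and RV-Cre cells received a retrovirus that expresses Cre recombinase. Both were activated by antibodies to CD3ε (10 μg/ml, bound to the plate) and CD28 (5 μg/ml, in solution), and polarized to Th17 cells for 3 days with IL-6 (50 ng/ml), TGFβ1 (1 ng/ml), TNFα (1 ng/ml), IL-1β (2 ng/ml) and antibodies to IFNγ and IL-4 (5 μg/ml each), after which GFP+ cells were sorted. The labels call the control genotype WT although the title of that library names floxed cells, and its title was used. How many mice were pooled is not given in the sources used here. Each condition had 1 library, so the spread between cultures is unknown and p-values were not computed. Cre expression and loss of *Fak* came together in the RV-Cre library and cannot be told apart.

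A naïve T cell is kept small, non-dividing and circulating by a set of transcription factors and receptors that antigen stimulation switches off. FOXO1 stays in the nucleus while PI3K and AKT are inactive, and there it drives *Klf2*, *Ccr7* and *Il7r*. KLF2 in turn drives *S1pr1*, the receptor with which lymphocytes leave lymph nodes along a gradient of sphingosine 1-phosphate. TCF1 (encoded by *Tcf7*) and LEF1 bind the same DNA element and maintain naïve and memory identity, BACH2 restrains effector genes, and SATB1 organizes chromatin in T cells.

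The depth was 13799264 reads for control and 12305010 reads for RV-Cre cells, of which the ribosomal RNA gene *Rn45s* took 8.50% and 14.6%. *Ptk2*, the symbol of *Fak* in the tables, had 110 reads in control and 31 in RV-Cre cells. Its normalized ratio was 0.318, with a 95% interval from 0.206 to 0.477. All 8 T cell markers had reads in both libraries, and together they amounted to 1584 and 2243 CPM (reads per 1000000 reads of the library). *Cd4* had 1489 and 1342 reads. The 6 B cell markers summed to 3.26 and 8.78 CPM, with *Pax5* at 0 reads in both libraries. The 7 myeloid markers summed to 21.7 and 36.5 CPM, and the 5 dendritic cell markers to 6.23 and 6.01 CPM. The myeloid markers went both ways, with *Csf1r* at 16 and 110 reads, *Fcer1g* at 177 and 242 and *Lyz2* at 22 and 7. The 6 CD8 and NK cell markers summed to 51.5 and 76.6 CPM, and their members went both ways. *Cd8a* had 322 and 580 reads, or 23.3 and 47.1 CPM, with a ratio of 2.03 (95% interval 1.77 to 2.34), and *Cd8b1* had 122 and 274 reads, with a ratio of 2.53 (2.04 to 3.16). *Klrd1*, an NK cell receptor gene, had 240 and 57 reads. The 5 endothelial markers summed to 30.9 and 63.1 CPM, and these also went both ways. *Pecam1*, also a T cell gene, had 195 and 620 reads and *Kdr* 9 and 39, while *Egfl7* had 221 and 117. *Tek* was at 0 reads in both libraries and *Cdh5* had 2 and 0. In 5 of these 6 marker lists the sum was higher in the RV-Cre library, the T cell list included. CD8 T cells express these 9 genes when naïve, and B cells, myeloid cells and endothelial cells express several of them. The part of such cells in the results was not tested.

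All 9 genes are protein-coding genes of the mouse genome (build GRCm38, the counterpart of the mm10 build named in the submitters' processing notes). *Klf2* lies on chromosome 8 (72319033 to 72321656, plus strand), *S1pr1* on chromosome 3 (115710433 to 115715072, minus strand), *Ccr7* on chromosome 11 (99144196 to 99155077, minus strand) and *Il7r* on chromosome 15 (9505788 to 9530176, minus strand). *Tcf7* lies on chromosome 11 (52252371 to 52283014, minus strand), *Lef1* on chromosome 3 (131110471 to 131224356, plus strand), *Foxo1* on chromosome 3 (52268336 to 52353221, plus strand), *Bach2* on chromosome 4 (32238804 to 32586108, plus strand) and *Satb1* on chromosome 17 (51736187 to 51833290, minus strand). The libraries were of a 3′ type, in which reads start near the end of the transcript, so the last exon is where most reads are placed and a count does not grow with transcript length. The last exon of 8 of the 9 genes overlaps no other annotated gene. That of *Tcf7* overlaps the lincRNA *Gm26551* on the same strand, so reads on it could belong to either. *Bach2os*, antisense to *Bach2* outside its last exon, had 23 and 31 reads.

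The genes differ widely in structure. They span from 2624 bases (*Klf2*) to 347305 bases (*Bach2*), and their longest coding transcripts have from 2 exons (*S1pr1*) to 12 exons (*Lef1*). The non-coding part 3′ of the stop codon had a median of 1515 bases, against 1142 bases over the 11042 expressed genes with a matched coding transcript, and was above that level in 7 of 9 genes. The GC content of the transcripts ran from 40.5% (*Il7r*) to 61.6% (*Klf2*), with a median of 49.0% against 50.0% over the expressed genes. *Klf2*, with the shortest span and the highest GC content of the 9, was also the gene with the highest ratio between the libraries. *Ccr7*, next in GC content at 53.5%, had a ratio of 1.25, and a link between structure and ratio was not tested.

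RefSeq promoter windows were used to see which letters the genes share next to their start sites. An entry was found for 7 of the 9 genes, not for *S1pr1* and *Ccr7*. The 250 bases before the first listed start site were searched on both strands for a forkhead motif (GTAAACA), the motif that KLF and SP factors share (CCNCNCCC) and the TCF and LEF motif (TCAAAG). The forkhead letters were in 0 of the 7 windows and in 2.20% of those of 9156 expressed genes. The KLF and SP letters were in 5 of the 7 windows, those of *Klf2*, *Tcf7*, *Lef1*, *Foxo1* and *Satb1* and in 63.5% of windows of expressed genes. The TCF and LEF letters were in 1 window, that of *Bach2*, and in 10.7% of windows of expressed genes. The windows of *Il7r* and *Bach2* lie inside the span that GENCODE gives these genes. A match is a description and not a binding site. The windows of *Klf2* (chr8:72318812-72319032, plus strand) and *Satb1* (chr17:51833291-51833540, minus strand), both with a ratio above 2, and of *Foxo1* (chr3:52268087-52268335, plus strand), the upstream factor, are shown 5′ to 3′ from RefSeq in build GRCm38.p6. The runs of *Klf2* and *Foxo1* stop where the first exon of GENCODE begins. Capitals mark the KLF and SP matches.
Klf2: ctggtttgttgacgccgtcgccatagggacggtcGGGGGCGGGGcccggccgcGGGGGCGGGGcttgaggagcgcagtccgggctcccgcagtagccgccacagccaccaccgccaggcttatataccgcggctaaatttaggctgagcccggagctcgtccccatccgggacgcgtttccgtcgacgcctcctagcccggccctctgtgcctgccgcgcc
Satb1: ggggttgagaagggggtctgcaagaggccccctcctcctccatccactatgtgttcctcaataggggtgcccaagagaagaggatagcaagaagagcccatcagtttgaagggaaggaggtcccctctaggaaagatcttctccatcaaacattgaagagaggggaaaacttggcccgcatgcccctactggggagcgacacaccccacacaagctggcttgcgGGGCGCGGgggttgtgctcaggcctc
Foxo1: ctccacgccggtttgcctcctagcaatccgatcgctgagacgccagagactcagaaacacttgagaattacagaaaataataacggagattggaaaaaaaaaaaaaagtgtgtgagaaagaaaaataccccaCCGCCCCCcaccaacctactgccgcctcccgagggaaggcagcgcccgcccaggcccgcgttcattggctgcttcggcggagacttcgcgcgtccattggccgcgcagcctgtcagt

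The comparison of RV-Cre with control Th17 cells asks which transcripts differ when *Fak* is deleted during polarization. All 9 genes were expressed well above the minimum used here, a log2(normalized count + 1) of at least 4, or 15 normalized reads, in at least 1 library. In RV-Cre cells 4 of them, *Klf2*, *S1pr1*, *Tcf7* and *Satb1*, were at least 2-fold higher than in control cells, as were 14.2% of the 12112 expressed genes. None of the 9 was at least 2-fold lower, against 12.3% of the expressed genes. Low counts make large ratios more common, and among the 9688 genes that reached a log2 level of 6 in at least 1 library, a level that all 9 genes reached, 7.58% were at least 2-fold higher. The median log2 ratio of the 9 genes was 0.68, against -0.01 over all expressed genes. A ratio taken in bulk RNA cannot tell fewer cells of a type from less RNA per cell.

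**Figure D1:**
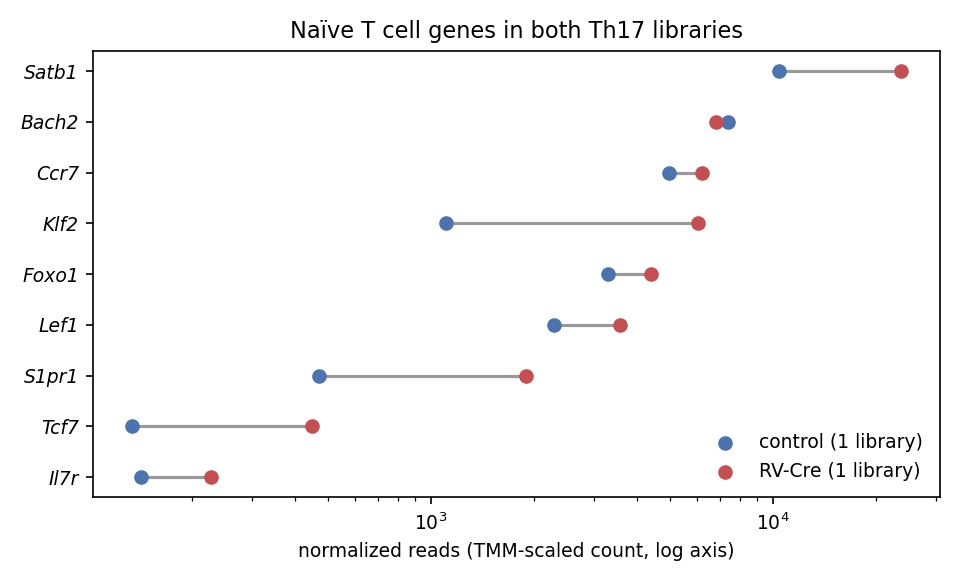
Normalized reads (TMM-scaled counts, log axis) of the 9 naïve T cell genes in the control library (blue) and the RV-Cre library (red), 1 library each, joined by a line per gene and ordered by the RV-Cre level. *Klf2* went from 1106 to 6021 normalized reads, the longest line, while *Bach2*, at 7399 and 6808, had the only red point to the left of its blue one with this scaling.

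Among the transcription factors of quiescence, *Klf2* had 1175 reads in control and 5668 in RV-Cre cells. This was 85.1 and 461 CPM, a normalized ratio of 5.44 (95% interval 5.11 to 5.80 by the exact Clopper-Pearson method, for counting error alone) and a log2 ratio of 2.44. Of all expressed genes, 4.48% had a ratio as high or higher. KLF2 holds T cells out of division, and its transcript was at rank 2370 by level among expressed genes in control cells and at rank 256 in RV-Cre cells. *Foxo1*, the factor upstream of it, had 3498 and 4142 reads, and its ratio was 1.34 (95% interval 1.28 to 1.40). Its difference was beyond counting error and far short of 2-fold, and 29.3% of expressed genes had a ratio as high or higher. Within each library, where the scaling cancels, *Klf2* went from 0.336 reads per *Foxo1* read to 1.37, a change of 4.07-fold (95% interval 3.77 to 4.41). FOXO1 is controlled mainly by its place in the cell, which counts do not show.

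The receptors of homing and exit differed from one another in ratio. *S1pr1*, the exit receptor, had 502 and 1792 reads, or 36.4 and 146 CPM. Its ratio was 4.03 (95% interval 3.65 to 4.46). *Ccr7*, the receptor for the chemokines CCL19 and CCL21 that brings naïve cells into lymph nodes, had 5259 and 5832 reads, or 381 and 474 CPM, a ratio of 1.25 (95% interval 1.21 to 1.30). *Ccr7* was thus abundant in both libraries and *S1pr1* was higher in the RV-Cre library. The reads of *S1pr1* per read of *Ccr7* went from 0.0955 to 0.307, a change of 3.22-fold (95% interval 2.89 to 3.59). *Il7r*, which carries the survival signal of IL-7, had 151 and 215 reads, or 10.9 and 17.5 CPM. Its ratio of 1.61 had the widest interval of the 9 relative to its value, from 1.30 to 1.99, which excludes 1 and just excludes 2.

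*Tcf7* and *Lef1*, a pair of closely related HMG box factors, differed both in level and in ratio. *Tcf7* had 142 reads in control and 424 in RV-Cre cells, or 10.3 and 34.5 CPM, a ratio of 3.37 (95% interval 2.78 to 4.10). *Lef1* had 2429 and 3352 reads, or 176 and 272 CPM, a ratio of 1.56 (95% interval 1.48 to 1.64). The control library held 17.1 reads of *Lef1* per read of *Tcf7* and the RV-Cre library 7.91, a change of 0.462-fold (95% interval 0.377 to 0.564). *Lef1* thus had more reads than *Tcf7* in both libraries, as counts of 3′ ends that do not depend on length. Reads on the last exon of *Tcf7* could also belong to *Gm26551*, and the annotation used for counting is not given in the sources used here. The levels of the pair are therefore compared with that limit.

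*Satb1*, the chromatin organizer, and *Bach2*, a transcriptional repressor, were the most abundant of the 9 genes in both libraries. *Satb1* had 11088 and 22319 reads, or 804 and 1814 CPM, and stood at rank 39 by level among expressed genes in RV-Cre cells. Its ratio of 2.27 had the narrowest interval relative to its value, from 2.22 to 2.32, and lay wholly beyond 2-fold. *Bach2* had 7860 and 6409 reads, or 570 and 521 CPM, a ratio of 0.920 (95% interval 0.890 to 0.951). *Bach2* was the only one of the 9 with a log2 ratio below 0 (-0.12), and that sign depended on the scaling, since scaling to *Gapdh* gave 0.30. The reads of *Satb1* per read of *Bach2* went from 1.41 to 3.48.

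**Figure D2:**
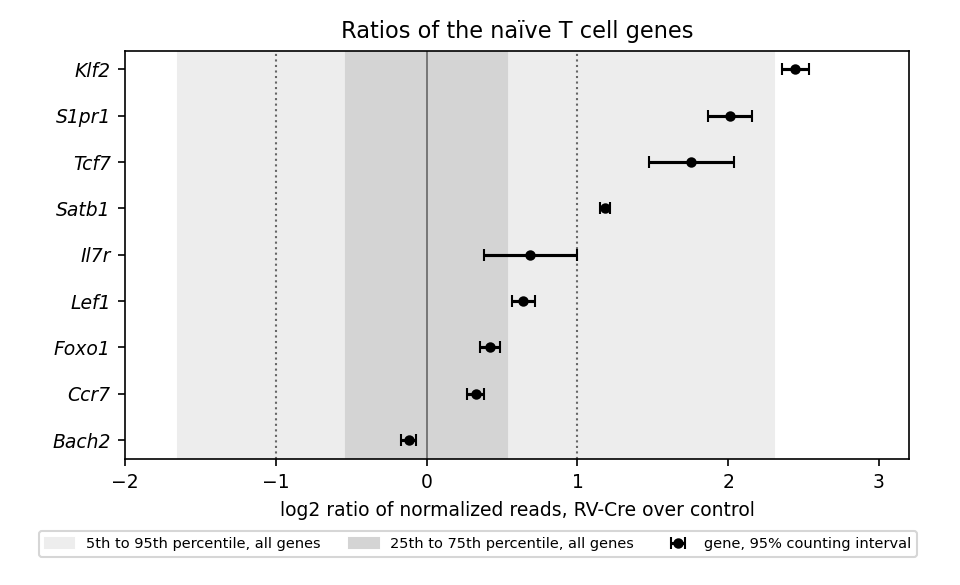
Log2 ratio of normalized reads (RV-Cre over control) of each of the 9 genes with its exact 95% counting interval, over the 5th to 95th percentile (-1.65 to 2.30, light grey) and the 25th to 75th percentile (-0.53 to 0.53, dark grey) of all 12112 expressed genes. Dotted lines mark 2-fold. The intervals of *Klf2*, *S1pr1*, *Tcf7* and *Satb1* lie wholly to the right of 2-fold, and that of *Il7r* ends just short of it.

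The counting interval lay wholly above a ratio of 2 for 4 genes, against 8.04% of expressed genes. It lay wholly above 1 for 8 genes, against 36.7% of expressed genes, and wholly below 1 for *Bach2*, against 38.1% of expressed genes. Most expressed genes thus differed between these 2 libraries beyond counting error, so an interval that excludes 1 says little of the conditions. Ranked by ratio, the 9 genes ran *Klf2*, *S1pr1*, *Tcf7*, *Satb1*, *Il7r*, *Lef1*, *Foxo1*, *Ccr7* and *Bach2*. Of the 8 neighbouring pairs in this order, *S1pr1* and *Tcf7* (ratio of ratios 1.20, 95% interval 0.957 to 1.49) and *Il7r* and *Lef1* (1.03, 0.828 to 1.29) could not be separated within counting error, and the other 6 could.

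**Figure D3:**
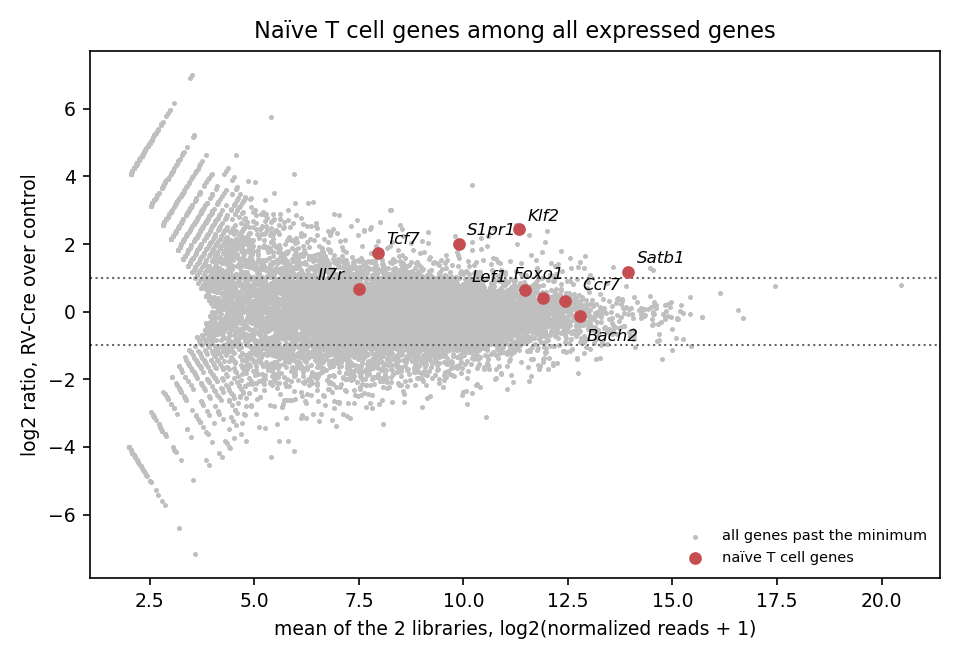
Log2 ratio (RV-Cre over control) against the mean level of the 2 libraries on the log2(normalized reads + 1) scale, for 12112 expressed genes (grey) and the 9 naïve T cell genes (red). Dotted lines mark 2-fold. *Klf2*, *S1pr1* and *Satb1* stand on the upper edge of the cloud at their levels, while *Lef1*, *Foxo1*, *Ccr7* and *Bach2* lie inside it.

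The order of levels among the genes differed between the libraries. In the control library it ran from *Satb1* at 804 CPM through *Bach2*, *Ccr7*, *Foxo1*, *Lef1*, *Klf2* and *S1pr1* to *Il7r* at 10.9 and *Tcf7* at 10.3 CPM, the last pair being within counting error (level ratio 1.06, 95% interval 0.840 to 1.35). In the RV-Cre library *Klf2* had passed *Foxo1* and *Lef1* and stood beside *Ccr7*, with 461 against 474 CPM (level ratio 1.03, 95% interval 0.992 to 1.07), and *Tcf7* stood above *Il7r*. Together the 9 genes took 2327 CPM in control (exact binomial 95% interval 2301 to 2352) and 4076 CPM in RV-Cre cells (4040 to 4112). *Satb1* alone gave 34.5% of these reads in control (95% interval 34.0% to 35.1%) and 44.5% in RV-Cre cells (44.1% to 44.9%). The share of *Bach2* was 24.5% and 12.8%, and that of *Klf2* 3.66% and 11.3%. Without *Satb1* and *Klf2*, the summed reads of the other 7 genes had a ratio of 1.26 (95% interval 1.24 to 1.29) in place of 1.76 (1.74 to 1.79).

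The genes around these 9 were followed with 12 lists of related genes, described by their counts and medians. Each count is to be read beside the 14.2% of expressed genes at least 2-fold higher and the 12.3% at least 2-fold lower. The lists were chosen with earlier results of these data known. Among the 8 other transcripts of naïve T cells, 4 were higher by at least 2-fold and 0 were lower, with a median log2 ratio of 0.83. *Dapl1*, a transcript of naïve T cells, had 108 and 601 reads (log2 ratio 2.64), and *Cd27*, a costimulatory receptor, 583 and 1560 reads (1.59). *Ets1* and *Ramp1* had the lowest values of that list, at 0.45 and 0.44. Among the 17 other quiescence and anergy genes, 7 were higher by at least 2-fold and 2 were lower, with a median of 0.85. The highest were *Ripor2*, listed as *Fam65b*, with 219 and 628 reads (1.69), and *Slfn1* with 556 and 1589 reads (1.69). The lowest were *Dtx1*, an anergy-associated ubiquitin ligase, with 96 and 32 reads (-1.38), and *Tob2* with 1957 and 782 reads (-1.15). The antiproliferative genes *Btg1*, *Btg2* and *Tob1* had log2 ratios of 1.23, 0.82 and 0.55.

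Of the 9 other lymphoid homing genes past the minimum, 2 were higher by at least 2-fold and 0 were lower, with a median of 0.41. That median was 0.19 with no minimum and 0.83 with scaling to *Gapdh*. *Gpr183*, a receptor for oxysterols, had 244 and 511 reads (log2 ratio 1.24). *Itgal*, the α chain of the integrin LFA-1, had 4003 and 1887 reads (-0.91), *Fut7* 69 and 36 reads (-0.75) and *Cxcr4* 363 and 234 reads (-0.46, or a ratio of 0.727 with an interval from 0.615 to 0.860).

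In the sphingosine 1-phosphate axis, 2 of 10 genes past the minimum were higher by at least 2-fold and 1 was lower, with a median log2 ratio of 0.40. That median was 0.11 with no minimum, 0.27 with the minimum required in both libraries and 0.82 with scaling to *Gapdh*. *S1pr4*, a further receptor of the family, had 305 and 928 reads, and its ratio was 3.43 (95% interval 3.01 to 3.92). *S1pr1* had more reads than *S1pr4* in both libraries. *S1pr2* had 92 and 67 reads, while *S1pr3* with 8 and 2 reads and *S1pr5* with 5 and 10 reads did not pass the minimum. *Plpp3*, listed as *Ppap2b*, had 8 and 20 reads (1.38). *Sgpp1*, a phosphatase of sphingosine 1-phosphate, had 1028 and 336 reads (-1.44), and *Spns2*, its exporter, 52 and 26 reads (-0.80). *Cd69*, whose protein binds S1PR1 and removes it from the surface after activation, had 1025 and 872 reads, and its ratio was 0.960 (95% interval 0.876 to 1.05). The reads of *S1pr1* per read of *Cd69* went from 0.490 to 2.06, a change of 4.19-fold (95% interval 3.66 to 4.81).

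In the IL-7 receptor pathway, 2 of 10 genes past the minimum were higher by at least 2-fold and 0 were lower, with a median of 0.19 that became 0.61 with scaling to *Gapdh*. *Il2rg*, the common γ chain that pairs with IL-7Rα, had 6163 and 5439 reads, and its ratio was 0.996 (95% interval 0.960 to 1.03). *Bcl2*, a survival gene downstream of IL-7, had 1081 and 2814 reads (log2 ratio 1.55), and *Jak1*, the kinase bound to IL-7Rα, 5144 and 11239 reads (1.30). *Socs1*, a feedback inhibitor, had 1531 and 901 reads (-0.59), and *Stat5b* 2200 and 1864 reads (-0.06). *Il7* and *Tslp*, the ligands, were at 0 reads in both libraries, which allows up to 3 reads each. *Il2ra*, the IL-2 receptor α chain of activated T cells, had 87.4 reads per *Il7r* read in control and 40.1 in RV-Cre cells.

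Around *Foxo1* the values were mixed. Of 12 other known FOXO target genes, 2 were higher by at least 2-fold and 1 lower, with a median log2 ratio of 0.40. Among the highest was *Pik3ip1*, an inhibitor of PI3K, with 74 and 247 reads (1.90). The lowest were *Sesn2*, with 23 and 0 reads, and *Txnip* with 609 and 315 reads (-0.77). *Sesn2* was 6.79-fold lower if the RV-Cre count is set to a floor of 3 reads. The near end of its 95% interval was 5.09-fold lower. Of 8 PI3K and AKT pathway genes, 1 was higher by at least 2-fold and 0 lower, with a median of 0.43. *Pik3r1*, a regulatory subunit of PI3K, had 930 and 1820 reads (1.14), *Pik3cd* 3968 and 5605 reads (0.67), *Inpp5d* 387 and 372 reads (0.12) and *Akt1* 3874 and 1880 reads (-0.87). Of the related forkhead genes, 3 of 7 passed the minimum, with a median of 0.55. *Foxo4* had 255 and 491 reads (1.12), *Foxp4* 368 and 479 reads (0.55) and *Foxp1*, itself a quiescence factor of naïve T cells, 8331 and 8591 reads (0.22). *Foxo3* had 7 and 0 reads and did not pass the minimum.

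The other KLF genes went both ways. Of 16 genes, 10 passed the minimum, of which 4 were higher by at least 2-fold and 1 lower, with a median log2 ratio of -0.34 that became 0.08 with scaling to *Gapdh*. *Klf3*, a repressor that shares the DNA motif of KLF2, had 113 and 816 reads, and its ratio was 8.15 (95% interval 6.69 to 10.01). *Klf14* had 0 and 17 reads, or 6.39-fold higher if the control count is set to a floor of 3 reads. The lower end of its 95% interval was a ratio of 4.66. *Klf13* had 2361 and 5068 reads (1.28) and *Klf7* 149 and 372 reads (1.49). On the other side stood *Klf10*, a TGFβ-inducible gene, with 504 and 134 reads (-1.73), *Klf16* with 643 and 285 reads (a ratio of 0.500) and *Klf6* with 2222 and 996 reads (-0.98). The control library held 0.529 reads of *Klf2* per read of *Klf6* and the RV-Cre library 5.69, a change of 10.8-fold (95% interval 9.75 to 11.9) and the largest among the 14 pairs of genes compared in this way, which were chosen after the counts were seen.

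Among 12 other TCF and LEF genes and cofactors past the minimum, 1 was higher by at least 2-fold and 1 lower, with a median of 0.19. With no minimum that median was 0.08, with a minimum of 6 it was 0.31 and with scaling to *Gapdh* it was 0.61. *Tcf7l2* had 34 and 83 reads (1.43), *Bcl9l* 447 and 703 reads (0.83), *Axin2*, a target of β-catenin, 62 and 33 reads (-0.72) and *Tle1*, a corepressor, 201 and 86 reads (-1.04). *Ctnnb1*, which encodes β-catenin, had 3740 and 3172 reads, and its ratio was 0.957 (95% interval 0.913 to 1.00). Of 10 relatives, partners and AP-1 rivals of BACH2, 1 was higher by at least 2-fold and 0 lower, with a median log2 ratio of -0.11 that became 0.31 with scaling to *Gapdh*. *Jund* had 3111 and 7097 reads (1.36), *Bach1* 103 and 133 reads (0.54), *Mafg* 1254 and 719 reads (-0.63) and *Maff* 404 and 200 reads (-0.84). *Prdm1*, which encodes Blimp-1 and is repressed by BACH2, had 87 and 65 reads, and its ratio was 0.843 (95% interval 0.602 to 1.18). The reads of *Bach2* per read of *Prdm1* were 90.3 and 98.6, whose change of 1.09-fold had an interval from 0.781 to 1.53.

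The activation and effector genes, many of which fall silent in quiescent cells, lay on the opposite side. Of 16 genes, 0 were higher by at least 2-fold and 6 lower, beside 14.2% and 12.3% of expressed genes. Their median log2 ratio was -0.67, which was -0.25 with scaling to *Gapdh*. The lowest were *Gzmb*, the granzyme B gene, with 198 and 8 reads (-4.30), and *Cdk1*, the mitotic kinase gene, with 2971 and 397 reads (-2.73). The highest were *Id2* with 4546 and 3987 reads (-0.01) and *Tnfrsf9* with 1714 and 1340 reads (-0.18). The 4 of the 9 naïve T cell genes that were at least 2-fold higher thus stood beside lower division and effector transcripts in the same library. Division itself was not measured in these libraries, and whether it had a part in the values of these 4 genes was not tested.

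**Figure D4:**
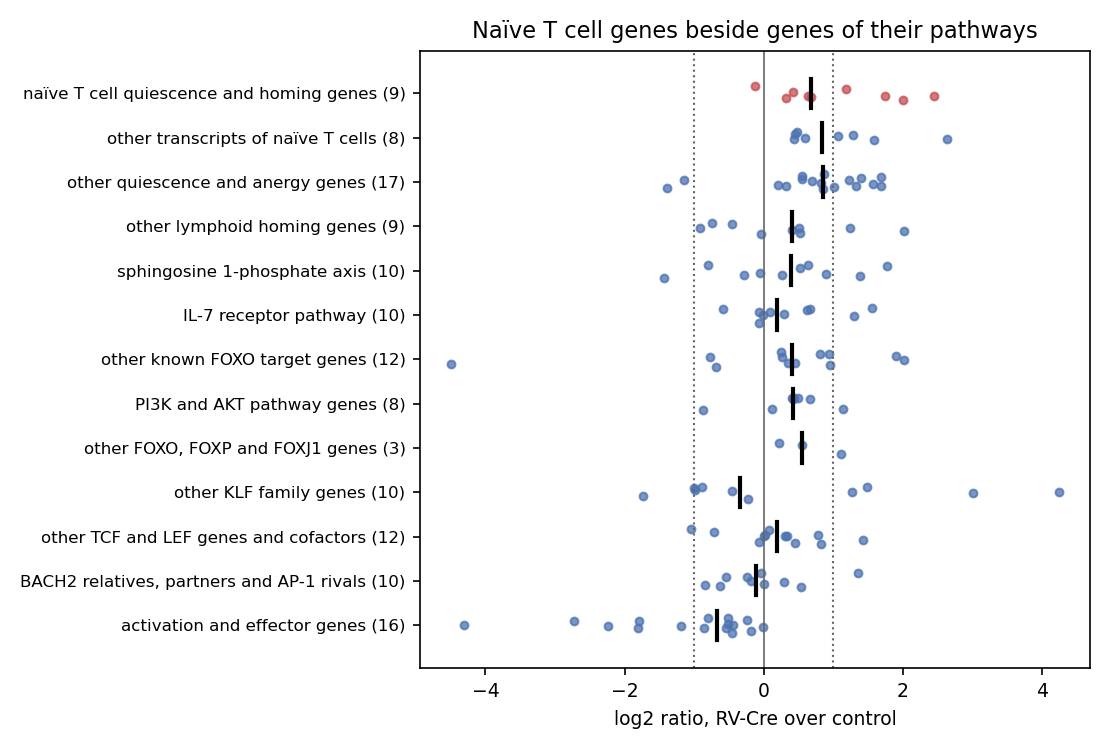
Log2 ratio (RV-Cre over control) of each gene past the minimum in the 9 naïve T cell genes (red) and in the 12 related lists (blue, number of genes in brackets), with the median of each list as a black bar and dotted lines at 2-fold. *Klf14* and *Sesn2*, each at 0 reads in 1 library, are placed by the 1 added to the normalized count. The medians ran from -0.67 for activation and effector genes to 0.85 for quiescence and anergy genes.

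Likeness to *Klf2* was measured as the distance between genes on the log2 levels of both libraries. Among the 3 closest genes were *Ms4a6b* with 1063 and 5551 reads (distance 0.15) and *Trib2* with 1456 and 6255 reads (0.34). A distance over 2 libraries describes their levels only.

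The scaling of the libraries shifts all 9 values together. Library totals, DESeq2 size factors and median centring left every one of them within its counting interval. Library totals without *Rn45s* raised 5 of them beyond it, for instance *Satb1* to 1.27 on the log2 scale. Scaling to *Gapdh*, which had 956 and 634 reads, raised all 9 beyond it, along with the median of all expressed genes by 0.44. *Il7r* (1.10) and *Lef1* (1.06) then passed 2-fold as well, which made 6 of 9 genes, beside 24.3% of the 12181 genes past the minimum with that scaling. A fold threshold of 1.5 also gave 6 of 9 genes, beside 23.5% of expressed genes, and a threshold of 3 gave 3 of 9, beside 8.32%. With *Gapdh*, the medians of the related lists were higher as well, to 0.82 for other FOXO targets, 0.84 for PI3K and AKT genes, 0.97 for forkhead genes, 1.25 for other naïve transcripts and 1.27 for quiescence and anergy genes. Across the 6 scalings *Klf2* ran from 2.43 to 2.86, *S1pr1* from 1.99 to 2.43, *Tcf7* from 1.73 to 2.16, *Satb1* from 1.17 to 1.60 and *Bach2* from -0.13 to 0.30.

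**Figure D5:**
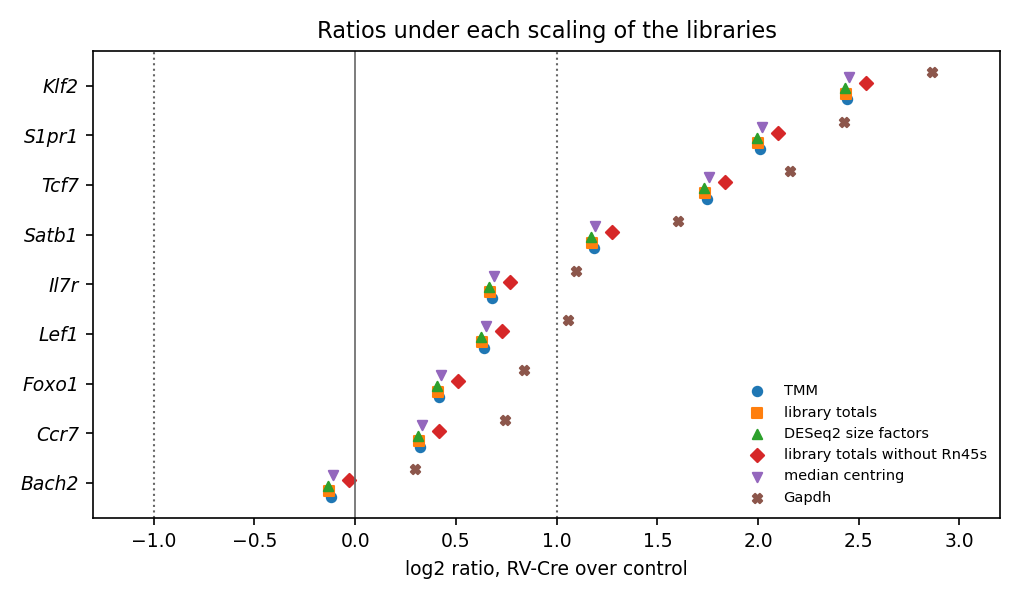
Log2 ratio (RV-Cre over control) of the 9 genes under 6 ways of scaling the libraries, with dotted lines at 2-fold. The order of the genes is the same under each, and the *Gapdh* values lie to the right of the others for every gene, with *Bach2* at 0.30 in place of -0.12.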

How the data were processed

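RNA of GFP+ sorted Th17 cells was made into 3′ QuantSeq libraries by the authors from 500 ng of total RNA, 1 library per condition. The submitters' processing notes name bcl2fastq 2.20.0.422, Bowtie2, bedtools and the mm10 build, and the gene annotation, the strand setting and the treatment of reads with several positions are not given in the sources used here. The authors deposited raw counts per gene symbol, with no normalization, in 23282 rows, of which 79 share a symbol with another row and were left out of gene lists.

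Counts were scaled here by TMM (edgeR 4.0.16, R 4.3.3; size factors 1.06 and 0.941) and compared as log2(normalized count + 1). Genes were called expressed where this reached 4 in either library. No test was run, since each condition had 1 library. Ratios carry 95% intervals by the Clopper-Pearson method (scipy 1.17.1), and a count of 0 allows up to 3 reads. Reads had no molecular identifiers, so both describe counting error alone. The procedure was run on simulated data that held counting error alone. Such data check the calculation and cannot show a spread between cultures. Gene models came from GENCODE M21 and promoter windows from RefSeq.

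The 9 genes and the lists were chosen with earlier results of these data known. Named from the lists were the 2 highest and 2 lowest ratios past the minimum, a fixed set of genes regardless of value (such as *Cd69* and *Prdm1*), and the 3 genes closest to *Klf2*. Some genes that this rule names are not reported here. *Klf7*, *Klf13*, *Il2ra*, *S1pr2*, *S1pr3*, *S1pr5*, *Il7*, *Tslp*, *Bach2os* and the single cell type markers fall outside this rule and were named after their values were seen. Alternatives were other scalings (DESeq2 1.42.0 among them), pseudocounts, minimums and fold thresholds, and a 99% interval.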

Additional observations from a re-analysis of the deposited data

How the results depend on the processing

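No paired analysis was possible because there was only 1 control and 1 RV-Cre library. The count of the 9 genes at least 2-fold higher, 4, was 6 with a fold threshold of 1.5 (23.5% of all genes past the minimum) or with scaling to *Gapdh* (24.3%), 3 with a fold threshold of 3 (8.32%), and 4 under the other alternatives, while 0 were lower under each. The 99% interval also left 4 genes wholly beyond 2-fold. The median log2 ratio of the 9 genes, 0.68, was 1.10 with scaling to *Gapdh* and within the counting interval of its gene otherwise.

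Counts over all genes, 1720 higher and 1491 lower, were 2960 and 780 with scaling to *Gapdh*, 3265 and 2441 with no minimum, 2847 and 2777 with a fold threshold of 1.5, and 1008 and 669 with one of 3. With a log2 minimum of 6 the higher genes numbered 734, and with a minimum of 4 in both libraries 758. Higher genes were 53.6% of the changed genes, 79.1% with *Gapdh* scaling, 40.8% with a minimum of 6 and 60.1% with a fold threshold of 3. For the minimums and fold thresholds, the shift follows from which genes are counted. For *Gapdh*, the shift follows from its own ratio of 0.748 with the main scaling, and why *Gapdh* differed was not tested. Depth limits *Il7r* and *Tcf7* most among the 9 genes.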
